A study of Homo sapiens with 6 samples.

Results

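Sites of cleavage and polyadenylation were examined in the genes of the 3 proteins that are specific to the U1 small nuclear ribonucleoprotein (snRNP), SNRNP70, SNRPA and SNRPC, and of the 3 LUC7-like factors LUC7L, LUC7L2 and LUC7L3. The genes were chosen by name and function. Their members in the data were all peaks of poly(A) 3′-seq whose summit lay in the annotated gene body or up to 4 kb past its 3′ end. This gave 71 of the 200023 peaks in the list, and 63 of the 138277 peaks that lay on the chromosomes or the mitochondrial genome and had a −log10 q of at least 5, the cutoff of the study.

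The libraries came from IMR-32 cells, an established human neuroblastoma line, which were given the solvent DMSO or 400 nM THZ531, a drug that binds covalently to the transcriptional kinases CDK12 and CDK13. There were 2 libraries of DMSO, 2 of THZ531 for 2 h and 2 of THZ531 for 6 h, labelled as biological duplicates of 1 cell line. Their titles name no genetic change. The list of peaks was made once from the merged reads of all samples and gives neither values of the separate libraries nor a strand. DMSO and THZ531 could therefore not be compared here, no value has a replicate error, and the depth of each library is unknown.

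The U1 snRNP is the part of the spliceosome that recognises the 5′ splice site by base pairing of its RNA. SNRNP70 (U1-70K) binds the first stem-loop of that RNA and SNRPA (U1A) the second, and SNRPC (U1C) stabilises the pairing with the 5′ splice site. The LUC7-like factors are relatives of a yeast U1 component and influence which 5′ splice sites are used. U1 snRNP is also known to keep nascent transcripts from being cleaved and polyadenylated at signals inside introns.

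The height of a peak is given as the number of reads at its summit, after each read had been extended to 100 bp from the end next to the poly(A) tail. It was solved from the fold enrichment and the p-value in the list. The peak caller by default keeps 1 read per start position and strand, so a height counts distinct read starts more than abundance, and heights were compared within the list only. Because the reads start at the cleavage site, the edge of a narrow peak nearest the 3′ end of the gene, here the 3′ edge, lies near that site. Wide peaks can hold more than 1 site, and the edge need not belong to the reads at the summit. The summit lay a median of 76 bp before the edge, and over 100 bp before it in 12 of the 63 peaks described below, where distances to a hexamer and shares of A still refer to the edge. A summit was classed as a transcript end where it fell between 200 bp before and 600 bp after the last base of an annotated transcript. The others were classed as exon, intron or downstream of the gene. A hexamer means 1 of the 12 polyadenylation signals that the study lists, AATAAA among them, within the 100 bp that end at the 3′ edge.

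The sequences at the tallest transcript-end peak of each gene show a hexamer near each end, with 30 bases printed on the strand of the gene and AATAAA, or ATTAAA where there was none, in capitals.
SNRNP70 chr19:49108577-49108606: tttaaaAATAAAattaatttcctgttgata
SNRPA chr19:40765349-40765378: gccggaATTAAAgtggctttttgaggtttg
SNRPC chr6:34774011-34774040: taaaatAATAAAcagcttggttcatttttc
LUC7L chr16:188990-189019: ggaataAATAAAtctgatgctgcctcctga
LUC7L2 chr7:139423124-139423153: aataatAATAAAatgaaagaaacaatcacc
LUC7L3 chr17:50756183-50756212: tttcttAATAAAatttaaaaagaagaatgg
All coordinates are of GRCh38 and count from 1. SNRPA was the gene without AATAAA at its end, where the variant ATTAAA stood instead. The AATAAA shown lay 28 to 37 bases before the edge of the peak in SNRNP70, SNRPC and LUC7L3, but 73 in LUC7L and 75 in LUC7L2. The SNRPC stretch lies past the annotated end of the gene, and the edge of its peak was 187 bp beyond that end. Which signal was used at a site was not measured.

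The peaks inside the genes had more varied sequence, and 6 of them are shown for the kinds that were found. Each line holds 40 bases up to the 3′ edge and 20 bases past it. Capitals mark the hexamer or, where none lay in the stretch, the longest run of A of at least 6 bases.
SNRNP70 intron 4, chr19:49094611-49094670: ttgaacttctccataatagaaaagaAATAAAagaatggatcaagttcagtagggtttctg
SNRPA intron 1, chr19:40756221-40756280: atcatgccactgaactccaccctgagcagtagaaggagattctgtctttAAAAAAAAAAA
LUC7L intron 2, chr16:221188-221247: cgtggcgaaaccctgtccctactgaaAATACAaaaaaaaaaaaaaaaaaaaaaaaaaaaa
LUC7L2 intron 9, chr7:139419800-139419859: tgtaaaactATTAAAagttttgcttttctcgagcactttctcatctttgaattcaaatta
LUC7L2 exon 7, chr7:139409587-139409646: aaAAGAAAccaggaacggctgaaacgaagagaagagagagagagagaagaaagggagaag
LUC7L3 exon 8, chr17:50745931-50745990: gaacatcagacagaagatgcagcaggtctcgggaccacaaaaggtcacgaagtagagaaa
The SNRNP70 and LUC7L2 introns had a hexamer at the usual distance and no run of A past the edge. The LUC7L intron ran into a long tract of A in the genome, on which an oligo(dT) primer can also anneal.

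Of the 63 peaks, 41 were intronic (65.1%, Wilson 95% interval 52.8 to 75.7%), 14 lay at transcript ends (22.2%), 7 in exons (11.1%) and 1 downstream of a gene. The 118176 peaks of all detected protein-coding genes with an intron, classed the same way, were 63.7% intronic, 21.9% at transcript ends and 10.2% exonic. The shares of the U1 and LUC7-like genes were thus near those of all genes, within intervals that take each peak as independent. LUC7L2 alone gave 24 of the 63 peaks and 18 of the 41 intronic ones, and the spread over genes is not in these intervals. A detected gene had at least 1 peak of −log10 q of at least 5 at an annotated end, which held for 12834 of 20046 protein-coding genes and for all of the genes examined.

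The remaining 8 of the 71 peaks missed the cutoff, with 8 to 20 reads and a −log10 q of up to 4.88, just below the weakest peak kept, at 5.03 with 15 reads. No summit lay inside a gene of the other strand. The markers of the labelled cell type were present: each of 10 markers of noradrenergic neuroblastoma had a peak at a transcript end, with the tallest between 19 reads (DBH) and 123 reads (PHOX2A). Of 6 markers of other cell types, PTPRC, CD3E, ALB and PECAM1 had no transcript-end peak, and the tallest had 7 reads in EPCAM and 15 in COL1A1. EPCAM and PECAM1 also had intronic peaks, the tallest of 25 and 7 reads.

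**Figure D1:**
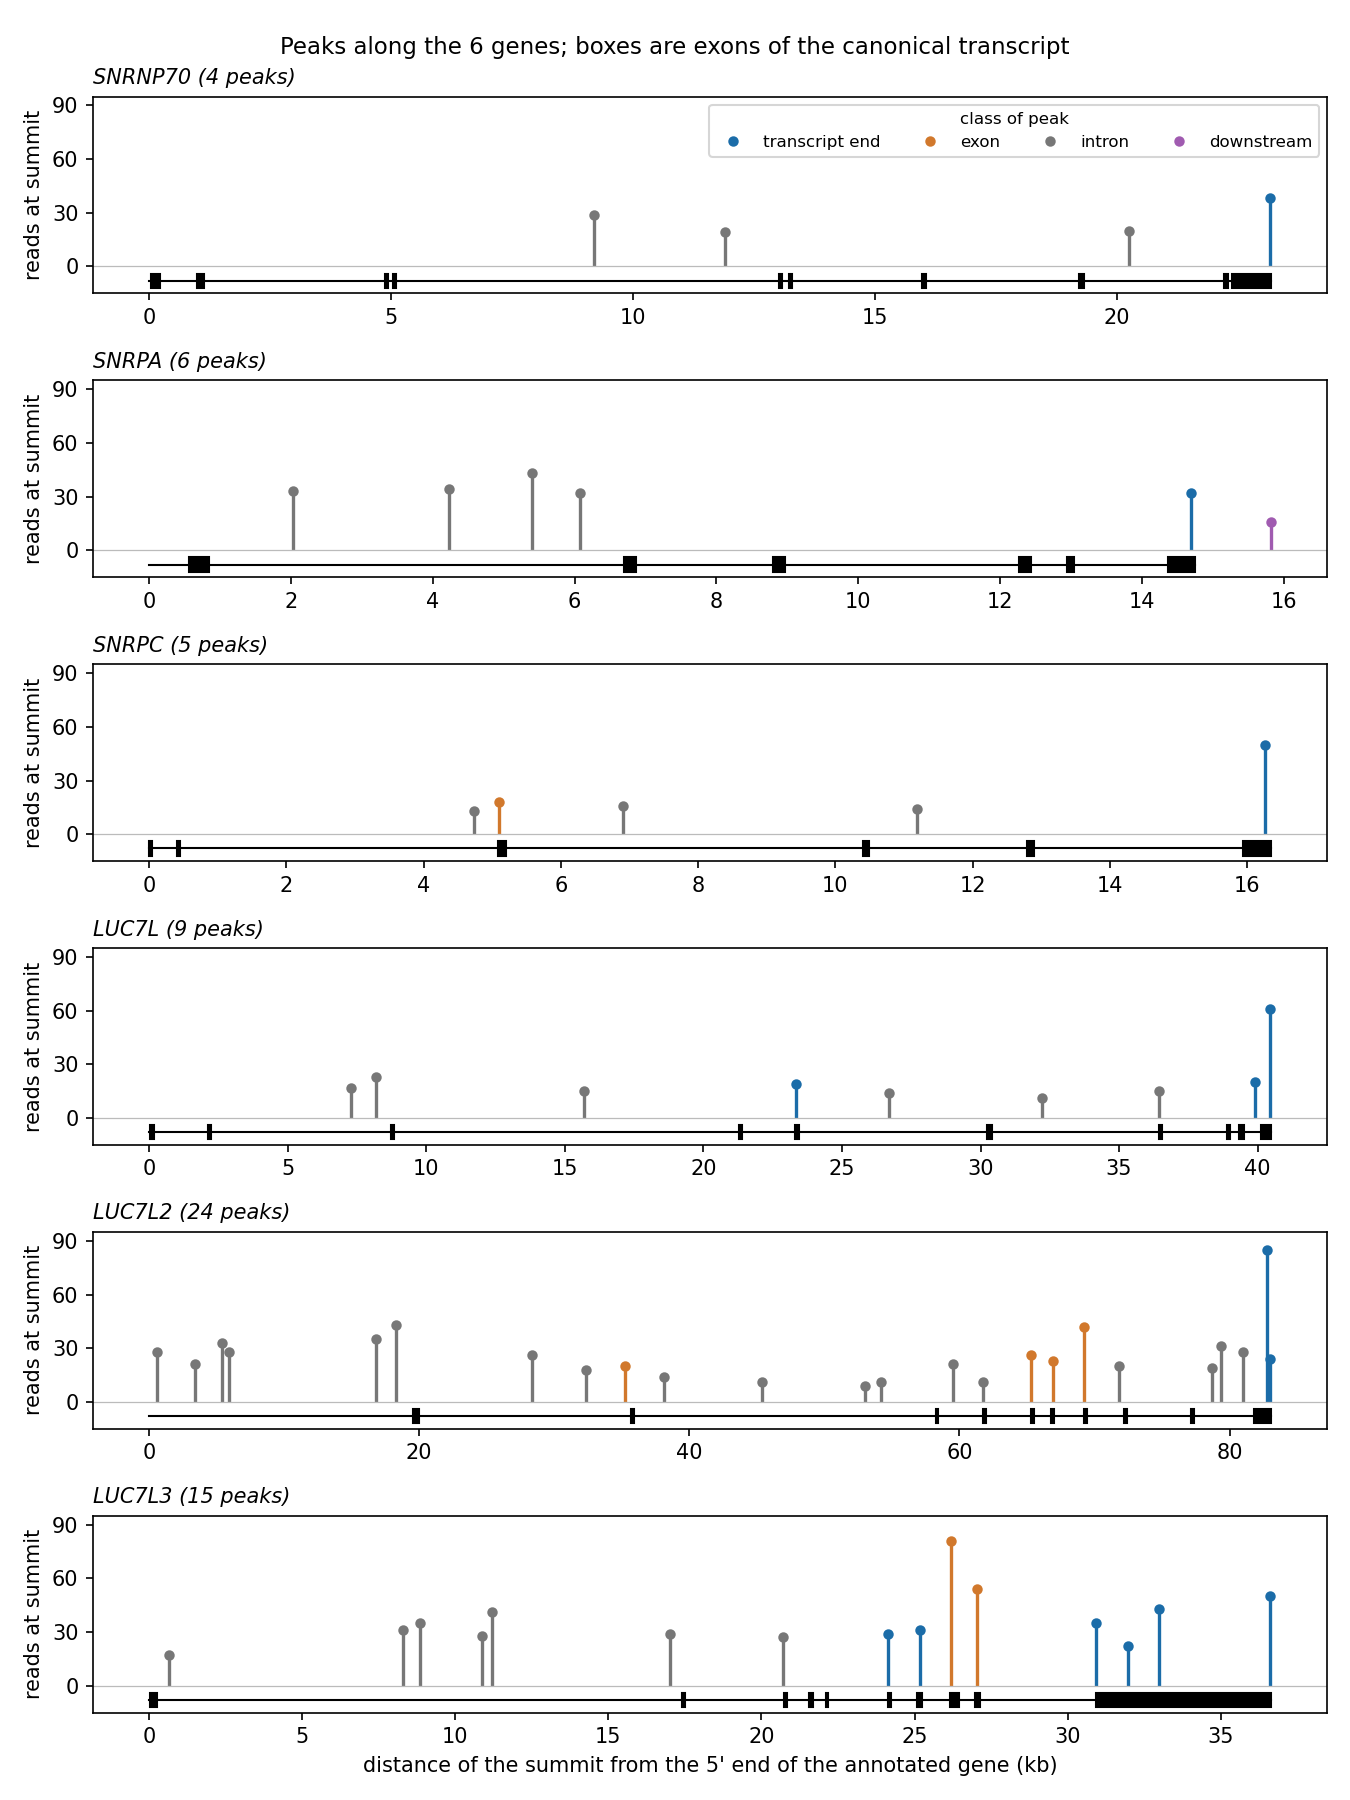
Peaks of each gene, with the distance of the summit from the 5′ end of the annotated gene in kb on the x axis and reads at the summit on the y axis. Black boxes are exons of the canonical transcript and colours are classes of peak; the 4 intronic peaks of SNRPA sit in the first intron, and the 2 tall exonic peaks of LUC7L3, at 81 and 54 reads, sit above all of its transcript-end peaks.

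SNRNP70 had 4 peaks, the fewest of the 6 genes. The gene (ENSG00000104852.15, chr19:49085419-49108605, plus strand) has 10 exons and encodes 437 codons, and its peaks were 1 at the transcript end and 3 in introns. The end peak (chr19:49108496-49108615) had 38 reads, a fold enrichment of 9.05 over the local background and AATAAA 33 bases before its 3′ edge. The tallest intronic peak (chr19:49094434-49094650) lay in intron 4, had 29 reads and had AATAAA 15 bases before its edge. A 19-read peak further into the same intron (chr19:49097269-49097384) had AATAAA 36 bases before its edge.

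Both of these sites followed exon 4, after 88 codons or 20.2% of the reading frame, and neither ran into A-rich sequence, with 20% and 35% A in the next 20 bases. The third intronic peak was of another kind: it lay in intron 8 (chr19:49105636-49105740, 20 reads), had no hexamer and ran into 65% A. The tallest intronic peak reached 76.3% of the height of the end peak (exact 95% interval 45.4 to 127%, from counting error alone), so their heights did not differ beyond counting error.

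SNRPA, which in other systems limits its own messenger RNA by binding near the poly(A) site, was the gene among the 6 whose tallest peak was intronic. The gene (ENSG00000077312.9, chr19:40750637-40765389, plus strand) has 6 exons and 282 codons. Its end peak (chr19:40765266-40765389) had 32 reads, with the 3′ edge at the annotated end and ATTAAA 35 bases before it. All 4 intronic peaks lay in intron 1, after only 24 codons or 8.63% of the reading frame, with 33, 34, 43 and 32 reads in order along the gene.

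The tallest of them (chr19:40755974-40756260), with its summit 216 bp before the edge, came to 134% of the end peak, with an interval of 83.1 to 219% that includes equal heights. By fold enrichment the order was the opposite, 13.5 at the end against 7.07 in the intron, because the local background was 1.45 reads at the end and 5.22 reads in intron 1. The next in height were chr19:40754822-40754956 and chr19:40752475-40752746. Only the last peak of the intron had a hexamer, AAGAAA at 95 bases before the edge, which is far from the usual distance. In the 20 bases past the edge, the 43-read peak had 55% A and the 33-read peak 80% A. The 34-read peak and the last peak had 30% and 35% A there. The 43-read peak also had AGCCTGG, a word from the end of the Alu repeat consensus, before its edge. A further 16-read peak past the gene (chr19:40766412-40766516) had no hexamer and ran into 80% A.

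The last 300 bases of SNRPA held both forms of the short box that the U1A protein is known to bind in its own messenger RNA, ATTGTAC starting 87 bases and ATTGCAC starting 61 bases before the annotated end. Both therefore lay upstream of the ATTAAA signal. Of the 12566 detected genes with an intron, 617 (4.91%, Wilson 95% interval 4.55 to 5.30%) had at least 1 such box on the gene's strand in the same window, and 21 (0.167%) had at least 2. None of the other 5 genes had one. A match of letters is a description and says nothing of binding in these cells.

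In SNRPC the transcript end stood above every other peak of the gene. The gene (ENSG00000124562.10, chr6:34757505-34773857, plus strand) has 6 exons and 159 codons, and its end peak (chr6:34773600-34774044) had 50 reads, a fold enrichment of 17.8 and AATAAA 28 bases before the edge. That peak was 445 bp wide, with its summit 283 bp before the edge and the edge 187 bp past the annotated end. The 3 intronic peaks lay in introns 2, 3 and 4 (chr6:34762204-34762303, chr6:34764388-34764496 and chr6:34768657-34768760) and had 13, 16 and 14 reads, at most 32.0% of the end peak (17.0 to 57.1%).

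Each of the SNRPC intronic peaks ran into 75 to 90% A and had the word AGCCTGG, from the end of the Alu repeat consensus, in the 100 bases before its edge. An exonic peak of 18 reads (chr6:34762533-34762639) began in intron 2 and ended in exon 3, with no hexamer. SNRPC has many pseudogenes: of 18 annotated copies by name, 4 had a peak, of 7 to 21 reads. None of the SNRPC peaks had a stretch elsewhere in the genome identical at 95 or more of the 100 bases up to its edge. At the end peak those bases lay past the annotated end of the gene. Copies of the sequence under its summit were therefore not sought, and reads from pseudogenes there were not tested.

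**Figure D2:**
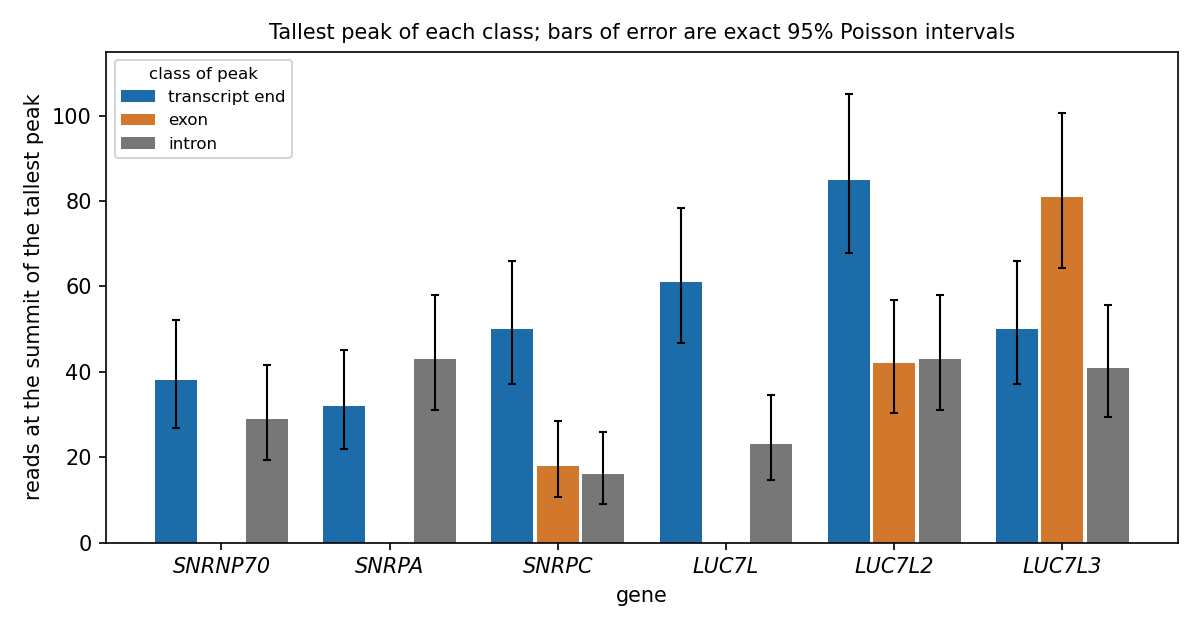
Reads at the summit of the tallest peak of each class in each gene, with exact 95% Poisson intervals that cover counting error only; a missing bar means that the gene had no peak of that class. Transcript ends lead in SNRNP70, SNRPC, LUC7L and LUC7L2, an intron leads in SNRPA (43 against 32 reads) and an exon in LUC7L3 (81 against 50 reads).

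LUC7L, the first of the LUC7-like genes, had its tallest peak at the annotated end. The gene (ENSG00000007392.17, chr16:188969-229463, minus strand) has 10 exons and 371 codons, and its tallest end peak (chr16:188941-189244) had 61 reads and a fold enrichment of 17.4. The AATAAA shown above lay 73 bases before the edge. A second peak of the class lay within intron 9 of the canonical transcript (chr16:189521-189623, 20 reads, ATTAAA at 25 bases), with its edge 375 bp past the nearest annotated end. The third peak of the class (chr16:206024-206228, 19 reads) sat in coding exon 5 after 163 codons, and the only transcript ending there is annotated as incomplete at its 3′ end.

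The 6 intronic peaks of LUC7L had 11 to 23 reads and were spread over introns 2, 3, 5 and 6. The tallest (chr16:221208-221315, 23 reads) was one of the 3 peaks with a full A stretch, meaning at least 22 A in 25 bases within 50 bp past the edge, and AATACA lay 14 bases before that edge. A 17-read peak in the same intron 2 (chr16:222124-222244) had ATTAAA at 26 bases and 30% A past the edge. Peaks of 15 reads lay in intron 6 (chr16:192995-193262) and intron 3 (chr16:213727-213826). The first of these had its summit in intron 6 and its 3′ edge in exon 7. Of the 41 intronic peaks of the 6 genes, 3 ended in a canonical exon in this way, the others in exon 4 of LUC7L2 (chr7:139402097-139402196, 11 reads) and exon 3 of LUC7L3 (chr17:50740227-50740331, 27 reads). The tallest intronic peak came to 37.7% of the end peak (22.3 to 61.8%, with reads taken as independent counts).

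LUC7L2 had the tallest end peak of the 6 genes and the most peaks, 24. The gene (ENSG00000146963.18, chr7:139340359-139423457, plus strand) spans 83.1 kb, and its main end peak (chr7:139422885-139423204) had 85 reads and a fold enrichment of 19.6, with AATAAA 75 and AGTAAA 23 bases before the edge. A peak of 24 reads at the end of the canonical transcript (chr7:139423353-139423456) had AATAAA 26 bases before its edge. Both ends lay in exon 10, after the whole reading frame of 392 codons. Only 46 of the other detected genes (0.366%) had a transcript-end peak of 85 or more reads.

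The 18 intronic peaks of LUC7L2 fell into separate stretches of the gene. The first 6 lay before the start of the canonical transcript. In that stretch the body of LUC7L2 overlaps FMC1, a gene on the same strand, but the peaks of 35 and 43 reads lay past FMC1. A readthrough gene of both, FMC1-LUC7L2, held these peaks and all later intronic and exonic ones. The 85-read end peak lay at one of its ends. Of the first 6, the peaks of 33 reads (chr7:139345684-139345801) and 28 reads (chr7:139346212-139346329) lay at annotated ends of FMC1. The tallest intronic peak of the gene (chr7:139358032-139359122, 43 reads) was 1091 bp wide with its summit 449 bp before the edge, ended upstream of the canonical first exon and had no hexamer. The next in height (chr7:139357041-139357186, 35 reads) had AATAAA 35 bases before its edge.

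Without the peaks before the canonical start, an alternative chosen after the data were seen, 12 intronic peaks remained in LUC7L2, and the tallest had 31 reads, or 36.5% of the end peak against 50.6% (34.2 to 73.8%) with them. That peak (chr7:139419722-139419839) lay in intron 9, where 3 peaks of 19, 31 and 28 reads followed each other after 85.1% of the reading frame. The 31-read and 28-read peaks had ATTAAA at 31 and AGTAAA at 19 bases before the edge, and the 19-read peak had an A stretch and no hexamer. The other intronic peaks past the canonical start had 18 and 26 reads in intron 1 and 9 to 21 reads in introns 2, 3 and 7.

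LUC7L2 also had 4 exonic peaks, 3 of them in consecutive coding exons. These lay in exon 5 (chr7:139405579-139405760, 26 reads), exon 6 (chr7:139407223-139407342, 23 reads) and exon 7 (chr7:139409484-139409626, 42 reads), after 41.1%, 57.7% and 63.9% of the reading frame. None held AATAAA, and the stretch shown from exon 7 was rich in A and G. The peak in exon 7 came to 49.4% of the end peak (33.3 to 72.3%). The fourth, of 20 reads, lay in an exon of another transcript inside intron 1 and had AATAAA 32 bases before its edge.

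LUC7L3 differed from the others in having its tallest peak in a coding exon. The gene (ENSG00000108848.16, chr17:50719565-50756219, plus strand) has 10 exons and 432 codons. The exonic peaks lay in exon 8 (chr17:50745633-50745970, 81 reads, fold enrichment 13.4) and exon 9 (chr17:50746483-50746690, 54 reads, fold enrichment 8.47), after 72.8% and 86.9% of the reading frame. The one in exon 8 came to 162% of the tallest end peak (112 to 235%). That interval takes reads as independent counts and leaves out the cap on reads per start position. The exon 8 peak was 338 bp wide and the end peak 129 bp, and the part of width in the heights was not tested.

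Among all detected genes with an intron, 1804 (14.4%) had an exonic peak taller than any of their transcript-end peaks, so the order in LUC7L3 was not rare. An exonic peak of at least 81 reads was found in 8 other genes. The peak in exon 8, with its summit 206 bp before the edge, had AAGAAA 78 bases before that edge and no AATAAA, and the peak in exon 9 had no hexamer. Past the edges the next 20 bases held 50% and 35% A, and neither had an A stretch.

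LUC7L3 had 6 transcript-end peaks, and 3.34% of the detected genes had as many or more. Of these, 4 lay in the last exon and had 35, 22, 43 and 50 reads in order along it. The 3 last (chr17:50751518-50751618, chr17:50752391-50752873 and chr17:50756097-50756225) followed the whole reading frame and had AATAAA 19, 19 and 37 bases before the edge, though the summit of the second lay 326 bp before its edge. The first of the 4 (chr17:50750449-50750577) was at the end of a transcript annotated without a reading frame and lay at 93.8% of the canonical one. The other 2 were at ends of transcripts annotated as targets of nonsense-mediated decay or with a retained intron (chr17:50743501-50743767, 29 reads, and chr17:50744700-50744806, 31 reads), after 37.7% and 52.9% of the reading frame.

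Of the 7 intronic peaks of LUC7L3, 6 lay in intron 1, the longest of the gene at 17128 bp, and had 17 to 41 reads, all after 33 codons. The tallest (chr17:50730684-50730918) had 41 reads, or 82.0% of the end peak (52.9 to 126%), with no hexamer and AGCCTGG in the 100 bases before its edge. Its 100 bases had 19 near-identical copies elsewhere in the genome, the most of any of the 63 peaks, and reads with several placements were kept at mapping, and the part of such reads in its height was not tested. The next in height were chr17:50728229-50728471 with 35 reads and chr17:50727774-50727938 with 31 reads, the latter with 1 copy elsewhere. Only 1 other peak of the 6 genes had such a copy, the 19-read peak of LUC7L2 intron 9 with 2.

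All 14 transcript-end peaks had a hexamer (78.5 to 100%), an interval that includes the 79.4% of transcript-end peaks in all detected genes. Of the 14, 8 had AATAAA (57.1%, 32.6 to 78.6%, against 47.4%). Read the same way on the other strand, from the opposite edge, 10 of the 14 (71.4%) and 12 of the 41 intronic peaks (29.3%) also had a hexamer. Among the 7 exonic peaks, 4 had a hexamer on the gene's strand and 6 on the other, and 3 had one on the other strand alone. Of the 41 intronic peaks, 21 had a hexamer (51.2%, 36.5 to 65.7%), against 57.2% of intronic peaks in all genes, and 6 had AATAAA (14.6%, 6.88 to 28.4%, against 26.4%). The 21 include the LUC7L2 peaks at annotated ends of FMC1. A hexamer starting 10 to 40 bases before the edge was found at 10 transcript-end peaks (71.4%) and at 15 intronic ones (36.6%), with 65.3% and 40.5% in all genes.

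Sequence rich in A was more common past the edges of intronic peaks than past those of transcript ends. The share of A in the 20 bases past the edge had a median of 50% at the 41 intronic peaks, 45% at the 7 exonic ones and 30% at the 14 transcript ends. In all genes the medians were 60%, 40% and 25%. The strict A stretch was found at 3 intronic peaks and at no other, and a looser one, at least 18 A in 25 bases, at 11 intronic peaks (26.8%) and at no other. Intronic peaks of all genes had the looser stretch at 27.7%. A filter that removes peaks with the strict stretch and no hexamer, the rule of the study, would take 2 of the 63 peaks with the hexamer sought in the 100 bp up to the 3′ edge, and 0 of them with the 100 bp up to the 5′ edge, which is the other way to read a window upstream of a peak.

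**Figure D3:**
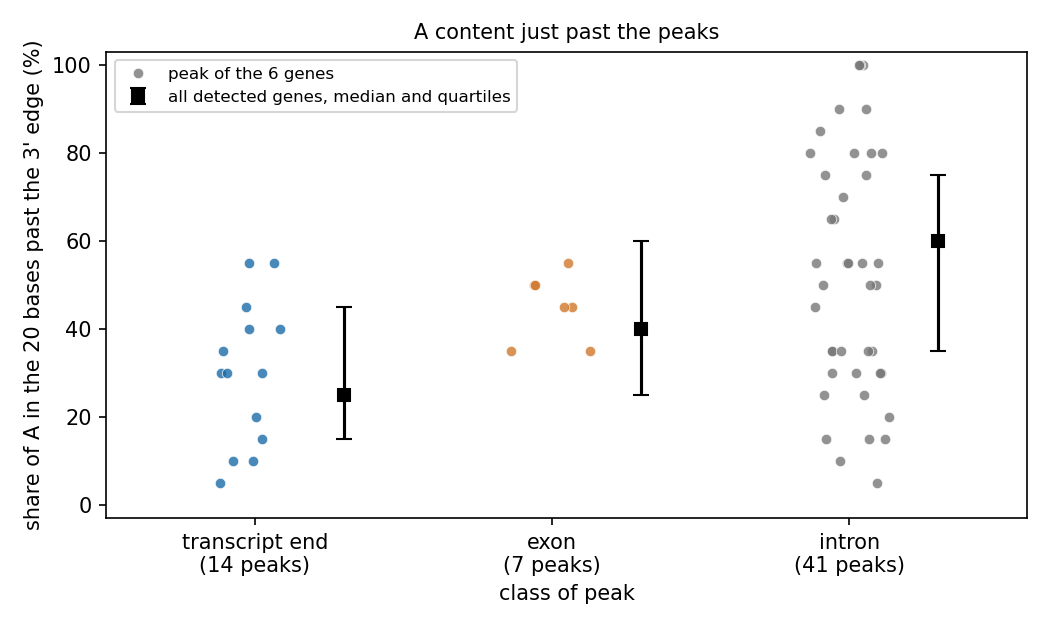
Share of A in the 20 bases past the 3′ edge, in percent, for the peaks of the 6 genes by class (points, shifted sideways at random) and for all detected genes (squares are medians and bars are quartiles). The intronic peaks spread from 5 to 100%, and the transcript-end peaks stay at or below 55%.

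Some of the intronic peaks lay next to sequence of the Alu repeat, the most common repeat of human introns. The word AGCCTGG, 7 letters that belong to the 3′ part of the Alu consensus, was searched on the gene's strand in the 100 bases before the edge, after the sequences had been seen. It was found at 10 of the 41 intronic peaks (24.4%, 13.8 to 39.3%), at the downstream peak of SNRPA and at no transcript-end or exonic peak. The shares in all genes were 18.2% of intronic and 4.85% of transcript-end peaks. Either the word or the looser A stretch was found at 16 intronic peaks. Another 12 had neither but had a hexamer starting 10 to 40 bases before the edge. Among these were both of the SNRNP70 peaks in intron 4 and the LUC7L2 peaks at annotated ends of FMC1. A further 7 had neither the word nor the looser stretch and no hexamer at all.

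Introns with peaks of the intronic class were longer in the median than introns without. The canonical transcripts have 46 introns, of which 17 held the 35 intronic peaks that lay past the canonical start. Those 17 were 2293 to 22442 bp long (median 5850 bp), and the 29 without one 82 to 4957 bp (median 1386 bp), with 10 of these over 2000 bp. Among the 29 were the 628 bp intron 9 of LUC7L and the 1974 bp intron 5 of LUC7L3, which held summits classed as transcript ends, of 20 and 29 reads. Intron 1 held 12 of the peaks, all in SNRPA, LUC7L2 and LUC7L3. The last intron held 3, all in LUC7L2.

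**Figure D4:**
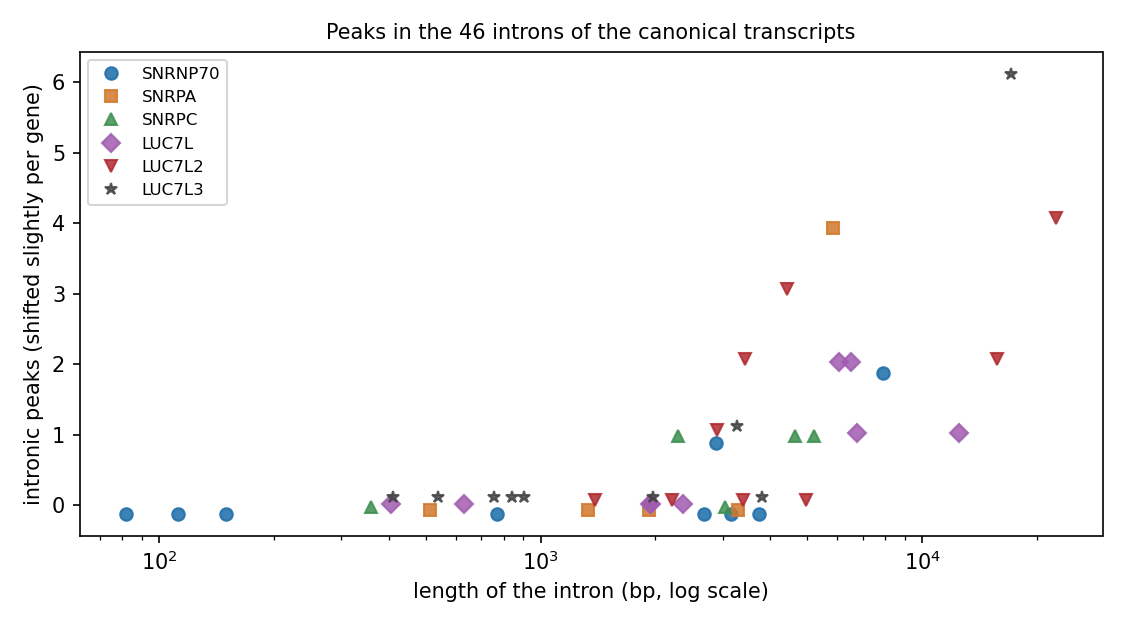
Number of intronic peaks against the length of the intron in bp (log scale) for the 46 introns of the canonical transcripts, with a symbol per gene and a small vertical shift per gene. No intron under 2293 bp had a peak of the intronic class, and the most, 6, were in the 17128 bp intron 1 of LUC7L3.

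The 5′ splice sites of these introns are shown because they are what the U1 snRNP itself reads. The 5′ end of the U1 RNA (gene RNU1-1, chr1:16514274-16514285, minus strand) reads atACTTACCTGg, where the 9 capitals pair with a perfect splice site. The first 2 bases of each intron are in capitals below.
SNRPC intron 5, no intronic peak: ctgGTaagt
SNRPA intron 1, 4 peaks: atgGTgagt
LUC7L3 intron 1, 6 peaks: agcGTaagt
LUC7L2 intron 9, 3 peaks: gagGTattg
Of 9 bases, 8 matched the perfect site in SNRPC intron 5, 6 in SNRPA intron 1 and in LUC7L3 intron 1, and 5 in LUC7L2 intron 9. These examples include the highest and lowest matches and do not stand for the rest. SNRNP70 intron 7 and SNRPA intron 2 matched at 5 without a peak, and LUC7L3 intron 2 at 7 with 1 peak. Introns with a peak matched at 5 to 7 bases with a median of 6, and introns without one at 5 to 8 bases with a median of 7. The ranges overlapped almost wholly, and the introns without a peak were also shorter, so this is a description of 46 introns only.

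Set against genes of like length and classed by all transcripts, all 6 genes had more intronic peaks than the median. The 12566 detected genes were split into 20 bins of length. LUC7L2, with 18 intronic peaks against a median of 7, had more than 98.2% of the other 627 genes of its bin, and still more than 83.6% with the 12 peaks past its canonical start. SNRPA, with 4 against a median of 1, had more than 94.7% of its bin. LUC7L3 (7 against 4), SNRPC (3 against 1), LUC7L (6 against 4) and SNRNP70 (3 against 2) had more than 86.3%, 77.4%, 73.4% and 55.5% of theirs. When classes came from the canonical transcript alone, SNRNP70 was not above the median, with 3 against 3, and had more than 44.8% of its bin. Beside these counts, the tallest end peak was also higher than in 62.7% (SNRPA) to 99.7% (LUC7L2) of the genes in the bin. The part of height in these counts was not tested.

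**Figure D5:**
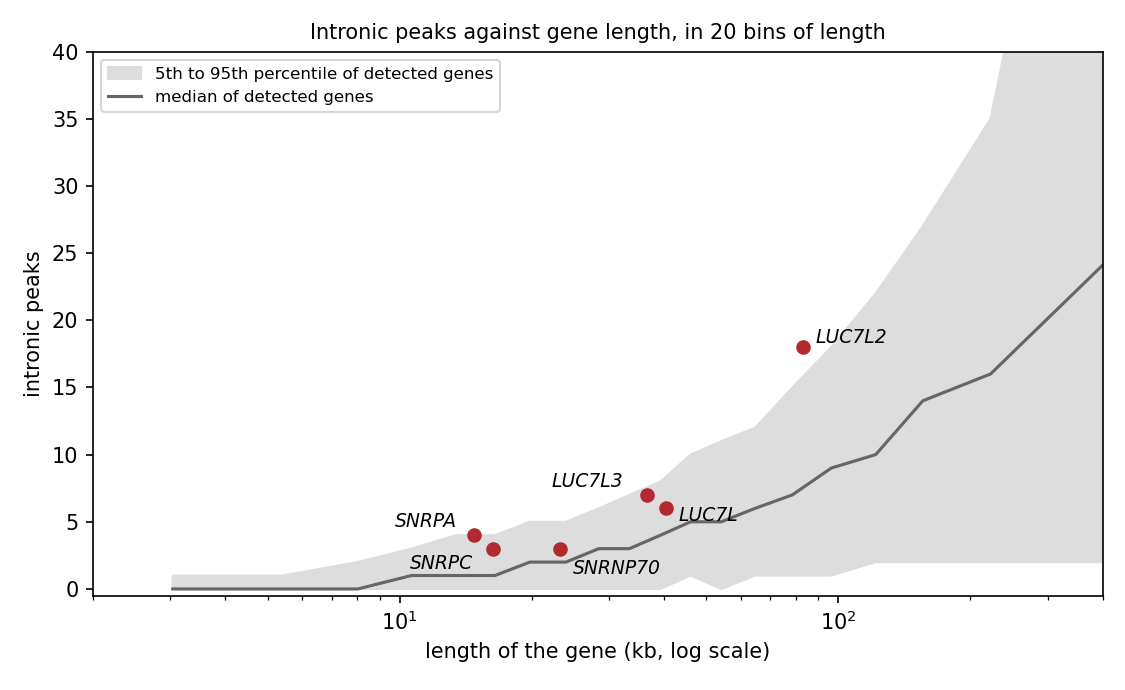
Number of intronic peaks against the length of the gene in kb (log scale). The line is the median and the grey area the 5th to 95th percentile of detected genes in 20 bins of length, the y axis ends at 40, and LUC7L2 with 18 lies above the grey area.

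The other proteins of the particle were read the same way. The 8 genes of the Sm ring, the shell of proteins shared by the spliceosomal snRNPs, all had a transcript-end peak, with the tallest between 26 and 63 reads, and 7 of them had an intronic peak, up to 5 per gene, where 79.4% of all detected genes with an intron had one. In 5 of the 8 the number of intronic peaks was above the median of the length bin, and SNRPN and SNRPF, with 4 each, had more than 9.41% and 34.8% of their bins. In SNRPD3 an exonic peak of 75 reads stood above the end peak of 26 reads. The 5 genes of U1-associated factors examined (PRPF39, PRPF40B, TIA1, TIAL1 and RBM25) had 4 to 11 intronic peaks each, all above the median of their length bin. Of these, RBM25 had an exonic peak of 56 reads against 38 at its end, and TIA1 an intronic peak of 46 reads against 28.

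The genes of the U2 counterparts of U1A, SNRPA1 and SNRPB2, had 1 and 2 intronic peaks, with 17 and 39 reads against 35 and 41 reads at the end. Neither had an intronic peak above its end peak, but the heights in SNRPB2 were close, the order in SNRPA was within counting error, and no difference between these genes was tested. Over all detected genes with an intron, 3462 (27.6%) had an intronic peak taller than any end peak, against 1 of the 6 genes here.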

How the data were processed

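Poly(A) 3′-seq libraries of 6 samples were trimmed, mapped to GRCh38 with STAR and merged by the authors, who called peaks once with MACS2 2.1.1 without a control and extended reads to 100 bp (tools per the labels and the study's methods). Which samples were merged is not spelled out in the methods, and they were taken to be these libraries. The deposited list gives per peak the fold enrichment, a ratio of pileup plus 1 to local background plus 1, and the −log10 p-value and −log10 q-value of the summit. Positions and the offset of the summit are also in it. The deposited score was not used. Reads at the summit and local background were solved here from the fold and −log10 p, with a largest misfit of 0.000172 in −log10 p. They range from 3 to 200 reads over the whole list.

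Peaks were assigned to genes, classes and introns with GENCODE release 44, a later release than the study's, which can change the class of a peak. Introns and codons follow the canonical transcript. Sequences and copies come from GRCh38, with copies sought by blastn. The steps were tested on simulated data. Shares have 95% Wilson intervals, and ratios of heights exact binomial intervals, all for counting error only. These intervals take peaks or reads as independent and leave out the cap on reads per start position. No test was made, as the list has no samples. Peaks have no strand, and the strand of the gene was used. Python 3.11.15, pandas 2.3.3 and scipy 1.17.1 were used.

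By the naming rule, all 6 genes are named, each with its tallest transcript-end peak, tallest exonic peak and 3 tallest intronic peaks. Other peaks were named after their values were seen. Another gene of the lists is not reported here. Genes, lists, markers and rules were chosen with earlier results of these data known. Alternatives were other cutoffs, end windows, transcripts, merging, hexamers and A stretches.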

Additional observations from a re-analysis of the deposited data

How the results depend on the processing

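No paired analysis was possible because reads of all libraries were pooled before peaks were called, and for the same reason no replicate was left out. Of 120 recomputed values, 102 stayed within 1.5 times the count or within the interval of the value as reported, and 18 did not. Part of the 102 could not change: no summit lay in a gene of the other strand, so leaving such peaks out altered nothing. The ratio of heights was also identical in every alternative where it was computed, except in LUC7L2. The tally is therefore not a measure of how stable the results are.

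With −log10 q of at least 20, which by construction keeps fewer peaks, 12 peaks remained, 7 at transcript ends and 2 in introns (16.7%), with a hexamer at 75% and an A stretch at 0%. The intronic peaks were then 1 each in SNRPA and LUC7L2 and 0 in SNRNP70, SNRPC, LUC7L and LUC7L3. The median of the length bin was then 0 as well, so the genes with 0 were not above it. With no cutoff, 71 peaks gave 48 intronic ones. With the canonical transcript alone, 6 peaks lay at transcript ends, and the tallest intronic peak of LUC7L2 came to 179% of its end peak, because the 85-read end belongs to other transcripts. A hexamer was found at 23.8% of the peaks with AATAAA alone and at 49.2% with the window ending at the summit, against 61.9%. An A stretch was found at 17.5% with 18 of 25 bases and at 14.3% with 50 bp either side of the edge, against 4.76%.

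At −log10 q of at least 20 the ratio of heights was not computed for SNRNP70, SNRPC, LUC7L and LUC7L3, where 0 intronic peaks were left. Alternatives chosen after the data were seen were leaving out peaks before the canonical start, which left 35 intronic peaks, and not counting incomplete transcript ends, and neither moved a count by over 1.5 times. Depth cannot be judged per library.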

Other observations

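The density of 2 kinds of letters was counted along each gene, on its own strand: the word GGTGAG, the word GGTAAG or the word GTGAGT, which can pair with U1 RNA and are called U1 motifs here, and AATAAA. SNRNP70 had 30 U1 motifs and 7 AATAAA over its body, a ratio of 4.29, higher than in 87.1% of the other genes of its length bin, whose median was 1.3. LUC7L had a ratio of 2.07, higher than in 76.1% of its bin. SNRPA, at 1.75, was near the median of its bin, 1.83, and higher than 47.8% of it.

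The other genes were poorer in U1 motifs relative to AATAAA. SNRPC had 13 against 15, a ratio of 0.867 where the median of the bin was 1.75, and was higher than 26.6% of it. LUC7L3 had 26 against 37, a ratio of 0.703 that was higher than in 27.2% of its bin, and LUC7L2 had 39 against 77, a ratio of 0.506 that was higher than in 18.5% of its bin. The share of G and C was 53.4% in SNRNP70, 50.8% in SNRPA and 47.3% in LUC7L, and lower in the other genes, at 42.5% in SNRPC, 40.4% in LUC7L2 and 39.7% in LUC7L3. The motifs overlap in letters and were counted at every position. The part of base composition in these ratios was not tested.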
